A study of Mus musculus with 3 samples.

Results

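Heat shock proteins and other molecular chaperones were followed in natural killer (NK) cells of mouse lung and blood before and after tumor cells reached the lung. The set held 10 of the 25906 genes in the count tables. They were listed by name, with earlier results of these data already known. They were the stress-inducible HSP70 genes Hspa1a and Hspa1b, the co-chaperones Dnajb1 and Hsph1, and the cytosolic HSP90 genes Hsp90aa1 and Hsp90ab1. The others were the constitutive HSP70 gene Hspa8, the endoplasmic reticulum (ER) HSP70 gene Hspa5, and the mitochondrial pair Hspd1 and Hspe1. The cells were live NK1.1+NKp46+ cells sorted from lungs and blood of wild-type female mice 9 weeks of age. Naive mice received nothing, and the other mice were given PyMT cells, a mouse mammary tumor line, by vein 6 h or 14 days before the organs were taken. Each of these 3 conditions was 1 droplet single-cell library in which lung and blood cells were run together and told apart by a hashtag antibody, so there were 6 groups of cells and no replicate library. There were 5 mice in a group, but no label ties a cell to its animal, so each condition counts as 1 sample. Lungs were broken up mechanically and with collagenase, a step that blood does not need, so tissue and handling cannot be told apart.

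After filtering, a group held 2069 to 4680 cells and 16936897 to 35922737 unique molecular identifiers (UMIs, 1 per captured transcript), with a median of 5909.5 to 7524 UMIs per cell. The NK label rests on the sort. All 8 NK genes examined, among them Ncr1, which encodes NKp46, and Klrb1c, which encodes NK1.1, were detected in each group. Detection somewhere in a group does not establish the identity of its cells. The 5 markers of type 1 innate lymphoid cells examined were also detected in each group. Between pairs of libraries 16, 11 and 7 cell barcodes were shared. Levels are given in CPM, the UMIs of a gene per 1000000 UMIs of all genes summed over the cells of a group. Intervals around levels, shares and ratios are exact 95% intervals that cover counting error only. Those of levels and ratios treat UMIs as independent, so they are too narrow where the UMIs of a gene clump in some cells. With 1 library per condition there was no test, and a difference between 2 conditions cannot be told apart from a difference between 2 libraries.

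Chaperones bind proteins that are unfolded or partly folded and use ATP to keep them from aggregating until they fold. When proteins are damaged by heat, oxidation or other stress, the transcription factor HSF1 is freed from chaperones, binds heat shock elements in promoters, and switches on Hspa1a, Hspa1b, Dnajb1, Hsph1 and others, whereas unfolded proteins in the ER are sensed separately and switch on Hspa5. In lymphocytes the constitutive chaperones are abundant at all times and increase further when cells are activated and make more protein.

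The promoters that carry this regulation are shown for the genes on which the results turn, the near-identical HSP70 pair first. Hspa1a lies at chr17:34969190-34972156 and Hspa1b at chr17:34956436-34959238, both on the minus strand of mouse build GRCm38 and both made of a single exon. The 250 bases before the start of each transcript, from RefSeq on GRCm38.p6 and written 5′ to 3′, were chr17:34972157-34972406 for Hspa1a and chr17:34959239-34959488 for Hspa1b, minus strand. For Hsph1 they were chr5:149636316-149636565, minus strand, and for Hspe1 chr1:55087898-55088147, plus strand. Capitals mark the letters of a heat shock element, searched on both strands as GAANNTTC or TTCNNGAA, and overlapping matches are joined into a single run of capitals.
Hspa1a promoter: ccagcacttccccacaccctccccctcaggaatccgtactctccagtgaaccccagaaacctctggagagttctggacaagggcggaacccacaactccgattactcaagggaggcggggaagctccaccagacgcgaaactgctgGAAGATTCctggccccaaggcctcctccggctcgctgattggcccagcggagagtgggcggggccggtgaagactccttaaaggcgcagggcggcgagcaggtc
Hspa1b promoter: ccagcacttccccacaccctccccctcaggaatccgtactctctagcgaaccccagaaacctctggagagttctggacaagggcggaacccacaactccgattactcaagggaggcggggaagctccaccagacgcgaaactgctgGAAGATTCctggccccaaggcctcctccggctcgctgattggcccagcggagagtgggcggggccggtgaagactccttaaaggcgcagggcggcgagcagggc
Hsph1 promoter: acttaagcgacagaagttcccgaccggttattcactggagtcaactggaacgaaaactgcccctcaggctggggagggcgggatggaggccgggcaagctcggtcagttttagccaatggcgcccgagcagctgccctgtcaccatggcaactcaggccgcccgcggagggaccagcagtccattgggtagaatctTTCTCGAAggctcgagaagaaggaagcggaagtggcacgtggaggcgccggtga
Hspe1 promoter: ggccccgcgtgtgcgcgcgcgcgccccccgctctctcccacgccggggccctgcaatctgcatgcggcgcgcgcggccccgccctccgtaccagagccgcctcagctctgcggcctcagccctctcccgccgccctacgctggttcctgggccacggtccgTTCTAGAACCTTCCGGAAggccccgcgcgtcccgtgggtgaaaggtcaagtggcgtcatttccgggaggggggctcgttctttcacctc
The first pair of promoters was equal at 247 of 250 bases, and each held 1 match that began 104 bases before the transcript. Hsph1 held 1 match, 54 bases before its start in this window. Hspe1 held 3 overlapping matches, and in 2 places a run of 3 alternating units at the same spacing. The same run of matches lies in a window of Hspd1 (chr1:55087933-55088182, minus strand), because Hspe1 and Hspd1 stand head to head on chromosome 1 and share this stretch. Windows were at hand for 7 of the 10 genes, and none for Hspa8, Hsp90aa1 and Hsp90ab1. Those of Dnajb1 and Hspa5 held no match to these letters, nor did another window of Hspd1 (chr1:55088244-55088493, minus strand). Only exact letters were searched, so a window without a match is not shown to lack a heat shock element. Of 32851 windows of the same length over all genes, 12.8% held the 2-unit motif and 0.466% the 3-unit motif. A match is a stretch of letters, not a measured binding site.

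The inducible HSP70 genes stood apart from the other 8. Hspa1a, which encodes the heat-inducible HSP70 chaperone, was at 1.15 CPM in lung of naive mice, 1.87 CPM at 6 h and 22.1 CPM at 14 days, and at 0.40, 0.498 and 0.649 CPM in blood of the same 3 libraries. These levels rested on 27, 67 and 622 UMIs in lung and on 12, 11 and 11 UMIs in blood. Lung at 14 days was the one high group, and the intervals of neighbouring groups below it overlapped at each step. Hspa1b, which encodes a nearly identical protein, was at 3.20, 4.06 and 41.9 CPM in lung and at 1.33, 2.49 and 1.00 CPM in blood, from 75, 146 and 1180 UMIs in lung and 40, 55 and 17 in blood. It had the same single high group, and below it blood at 6 h stood apart from the 2 other blood groups.

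**Figure D1:**
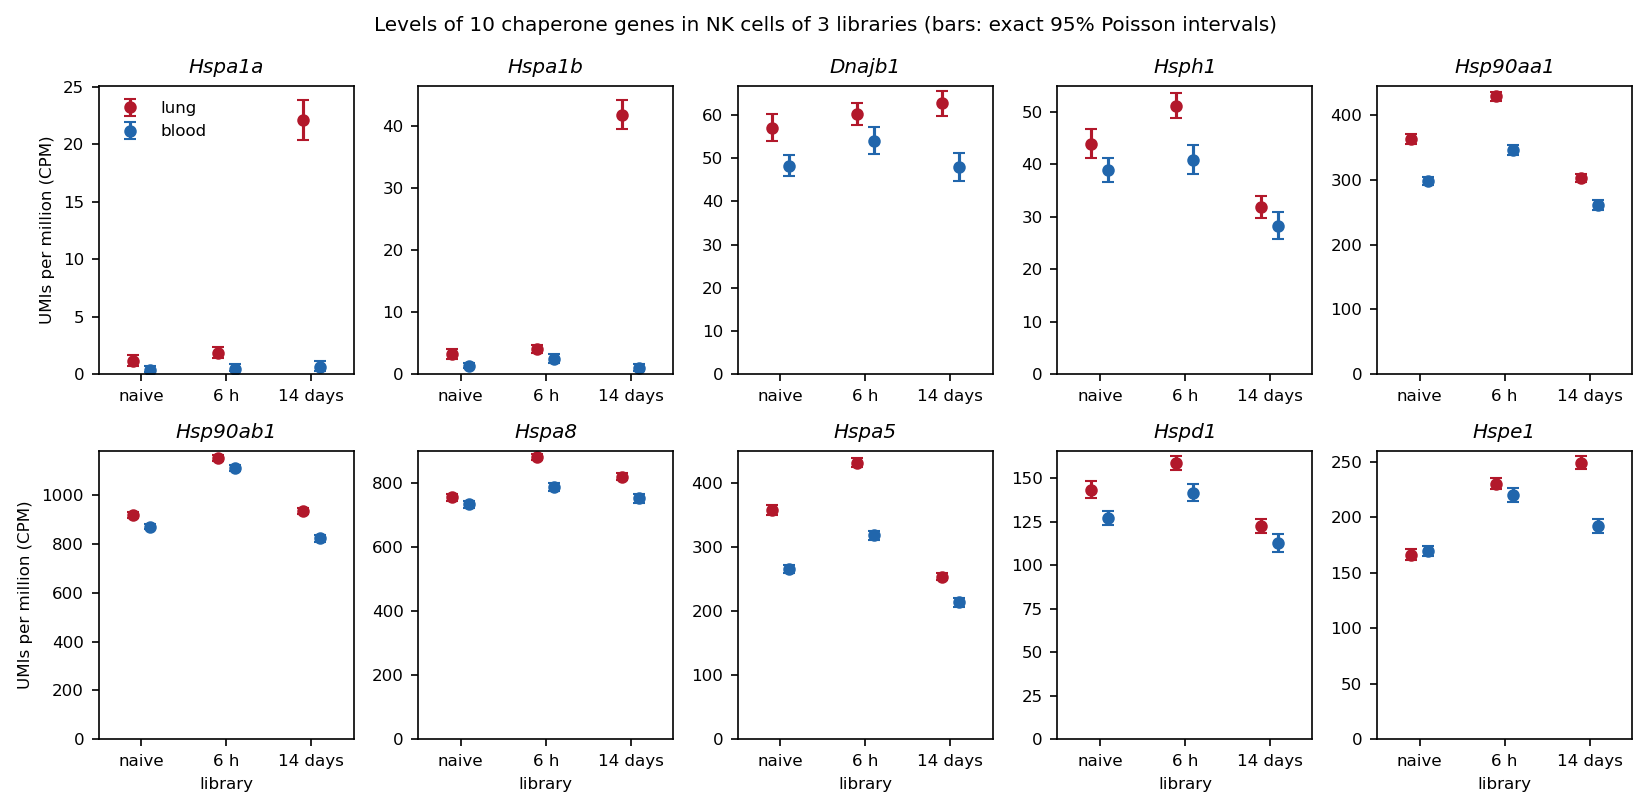
Level of each of the 10 genes in CPM, on a linear axis that starts at 0 and has its own range in each panel, in naive, 6 h and 14-day libraries for lung and blood; points are group levels and bars exact 95% counting intervals. Hspa1a and Hspa1b sit far above all other groups in 14-day lung, at 22.1 and 41.9 CPM. The other genes span narrower ranges for their level, such as 214 to 432 CPM for Hspa5.

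In lung, Hspa1a was 19.2-fold higher at 14 days than in naive mice (interval 13.1 to 29.4) and Hspa1b 13.1-fold higher (10.4 to 16.8), which are log2 ratios of 4.26 and 3.71. Within the 14-day library, where lung and blood cells went through the same droplet run and sequencing, the counts in lung cells were 34.0-fold (18.9 to 68.4) those in blood cells for Hspa1a and 41.7-fold (25.9 to 71.9) for Hspa1b. The blood counts, 11 and 17 UMIs, are no more than free RNA could give, so these folds are of the counts as observed and the blood cells' own level may be lower. The pair of genes shares 1716 of the 2918 stretches of 50 bases in the Hspa1a transcript, but none of the 451 stretches in its last 500 bases, where this 3′ assay reads, so the counts of the 2 genes can be told apart there.

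The changes at 6 h were far smaller. In lung the log2 ratio over naive was 0.70 for Hspa1a (0.03 to 1.40) and 0.35 for Hspa1b (-0.06 to 0.77). With each cell thinned to 3000 UMIs, so that depth was equal, these ratios fell to 0.18 and 0.05. In blood, where few UMIs were counted, the ratio without thinning was 0.32 for Hspa1a (-1.01 to 1.62) and 0.90 for Hspa1b (0.29 to 1.53). These blood ratios at 6 h rest on 11 and 55 UMIs. At 14 days the blood ratios were 0.70 (-0.62 to 2.01) and -0.41 (-1.32 to 0.44). Already in naive mice the lung level was above the blood level, with log2 ratios of 1.52 (0.49 to 2.64) and 1.26 (0.69 to 1.85), and at 6 h they were 1.90 (0.97 to 2.97) and 0.71 (0.25 to 1.18). Comparisons of 6 h and of 14 days with naive share the naive cells.

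A sum over cells cannot tell more positive cells from more RNA per cell, so the cells were examined singly. At least 1 UMI of Hspa1a or Hspa1b was found in 559 of 3575 lung cells at 14 days, or 15.6% (14.5 to 16.9). In naive lung it was 55 cells, 1.5% (1.13 to 1.94), and in lung at 6 h 100 cells, 2.14%. In blood the shares were 0.595%, 1.82% and 1.26%. When each cell was thinned to 3000 UMIs so that depth was equal, which left out at most 86 shallower cells of a group, the shares were 1.03, 0.970 and 10.3% in lung and 0.396, 0.770 and 0.436% in blood, in the order naive, 6 h, 14 days. At equal depth 14-day lung was the one group above 2%.

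RNA set free from broken cells can also give a UMI. From the RNA in nearly empty droplets, free RNA could have given Hspa1a to at most 0.656% and Hspa1b to at most 1.28% of lung cells at 14 days, against 6.94% and 12.0% observed. In blood of that library the shares, 0.483% and 0.773%, lay at or below the limits of 0.681% and 1.33%, so at 14 days free RNA alone could account for the blood counts, and they are not read as expression. In the naive and 6 h libraries the limits were far lower, 0.0356 to 0.0867% for Hspa1a and 0.179 to 0.214% for Hspa1b.

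**Figure D2:**
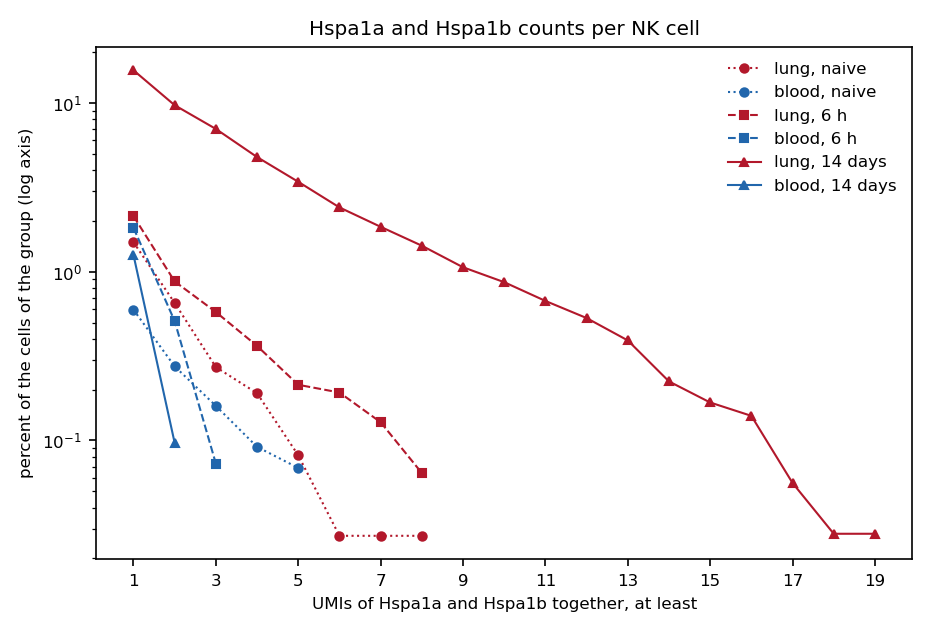
Percent of cells of each group (log axis) with at least a given number of UMIs of Hspa1a and Hspa1b together, for lung and blood in the 3 libraries. The curve of 14-day lung starts at 15.6% of cells with 1 or more UMIs and runs to a cell with 19 UMIs, whereas no cell of another group held more than 8.

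The counts in 14-day lung were spread over many cells and reached high values in some. Of the 559 positive cells, 212 had 1 UMI, 225 had 2 to 4 and 122 had 5 or more; the last class held 962 of the 1802 UMIs, 53.4%. The highest count in a cell was 19, against 8, 8, 5, 3 and 2 in the other groups. Hspa1a was found in 248 cells and Hspa1b in 428, and both in 117. Positive cells had a median of 7293 UMIs and 2.89% mitochondrial counts, and cells with none had 6921.5 UMIs and 2.94%, so depth and mitochondrial share were close between them.

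Other genes of the heat shock response were higher in the same cells. Among lung cells at 14 days the 559 positive cells were compared with the 3016 cells with no UMI of either gene, a split chosen after the values had been seen. Dnajb1, which encodes an HSP40 that hands substrates to HSP70, was at 113 CPM in positive and 52.5 CPM in other cells, a log2 ratio of 1.11 (0.96 to 1.26). Hsph1, which encodes the HSP110 that lets HSP70 exchange its nucleotide, was at 54.3 and 27.3 CPM, a log2 ratio of 0.99 (0.78 to 1.20). These were the 2 of the 8 remaining chaperones that passed 1.5-fold, where 0.278% of 3594 genes with at least 50 CPM were that much higher and 1.89% that much lower; Hsph1 passed the minimum only through its level in the positive cells. The ratios were 0.33 for Hsp90aa1, 0.25 for Hspe1, 0.18 for Hsp90ab1 and 0.09 for Hspa8, against a median of 0.03 over all genes. Hspa5 and Hspd1, which serve the ER and the mitochondria, were both at -0.06 with intervals that held 0.

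In lung the same pairing was present where few cells carried Hspa1a or Hspa1b. The log2 ratio of Dnajb1 between positive and other cells was 1.04 (0.60 to 1.45) in naive lung and 1.11 (0.81 to 1.39) in lung at 6 h. For Hsph1 it was 0.79 (0.24 to 1.30) and 1.14 (0.82 to 1.44). Over lung cells at 6 h at equal depth, the correlation of Hsph1 was 0.038 with Hspa1a and 0.0005 with Hspa1b. In blood (naive, 6 h, 14 days) the log2 ratio was 1.42, 0.99 and 1.45 for Hsph1 and 0.47, 0.73 and 0.14 for Dnajb1. These rest on 26 to 50 positive cells and are given without intervals. At equal depth the correlation of Hsph1 with Hspa1a and Hspa1b was 0.007 and 0.030 in naive blood. In blood at 6 h it was -0.011 and -0.026. In 14-day blood 24 of the 26 positive cells held 1 UMI, and free RNA alone could account for such counts. The 14-day blood ratios are therefore not read as a pairing. By summed counts, positive lung cells of all 3 libraries thus had a higher level of Dnajb1 and Hsph1. Over single cells at equal depth the correlations were weak. In 14-day lung they were 0.063 and 0.072 for Dnajb1 with Hspa1a and Hspa1b, and 0.054 and 0.049 for Hsph1. In naive lung they were 0.031 and 0.057 for Dnajb1, and 0.031 and 0.045 for Hsph1. Positive cells were 15.6% of 14-day lung and 1.5% of naive lung, where they were 55 cells.

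In 14-day lung the level of some of these genes went with the number of Hspa1a and Hspa1b UMIs. Dnajb1 was at 52.5, 106, 110.0 and 129.5 CPM in cells with 0, 1, 2 to 4 and 5 or more, where the intervals of the 3 positive classes overlapped, and Hsph1 at 27.3, 44.0, 57.4 and 64.3 CPM. Hspe1 was at 242, 253, 295 and 326 CPM and Hsp90ab1 at 916, 998, 998 and 1172 CPM. Hspa5 had no such order, at 256, 231, 276 and 215 CPM. The immediate early gene Jun, which encodes an AP-1 subunit, went up the same way, from 189 to 269, 382 and 444 CPM. Dusp1, which encodes a phosphatase of MAP kinases, went down, from 163 to 89.2, 61.2 and 40.9 CPM, and so did the nuclear receptor gene Nr4a1, from 135 to 82.7, 40.3 and 33.0 CPM. Cells of the highest class were also deeper, with a median of 8638 UMIs against 6921.5 in cells with none.

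**Figure D3:**
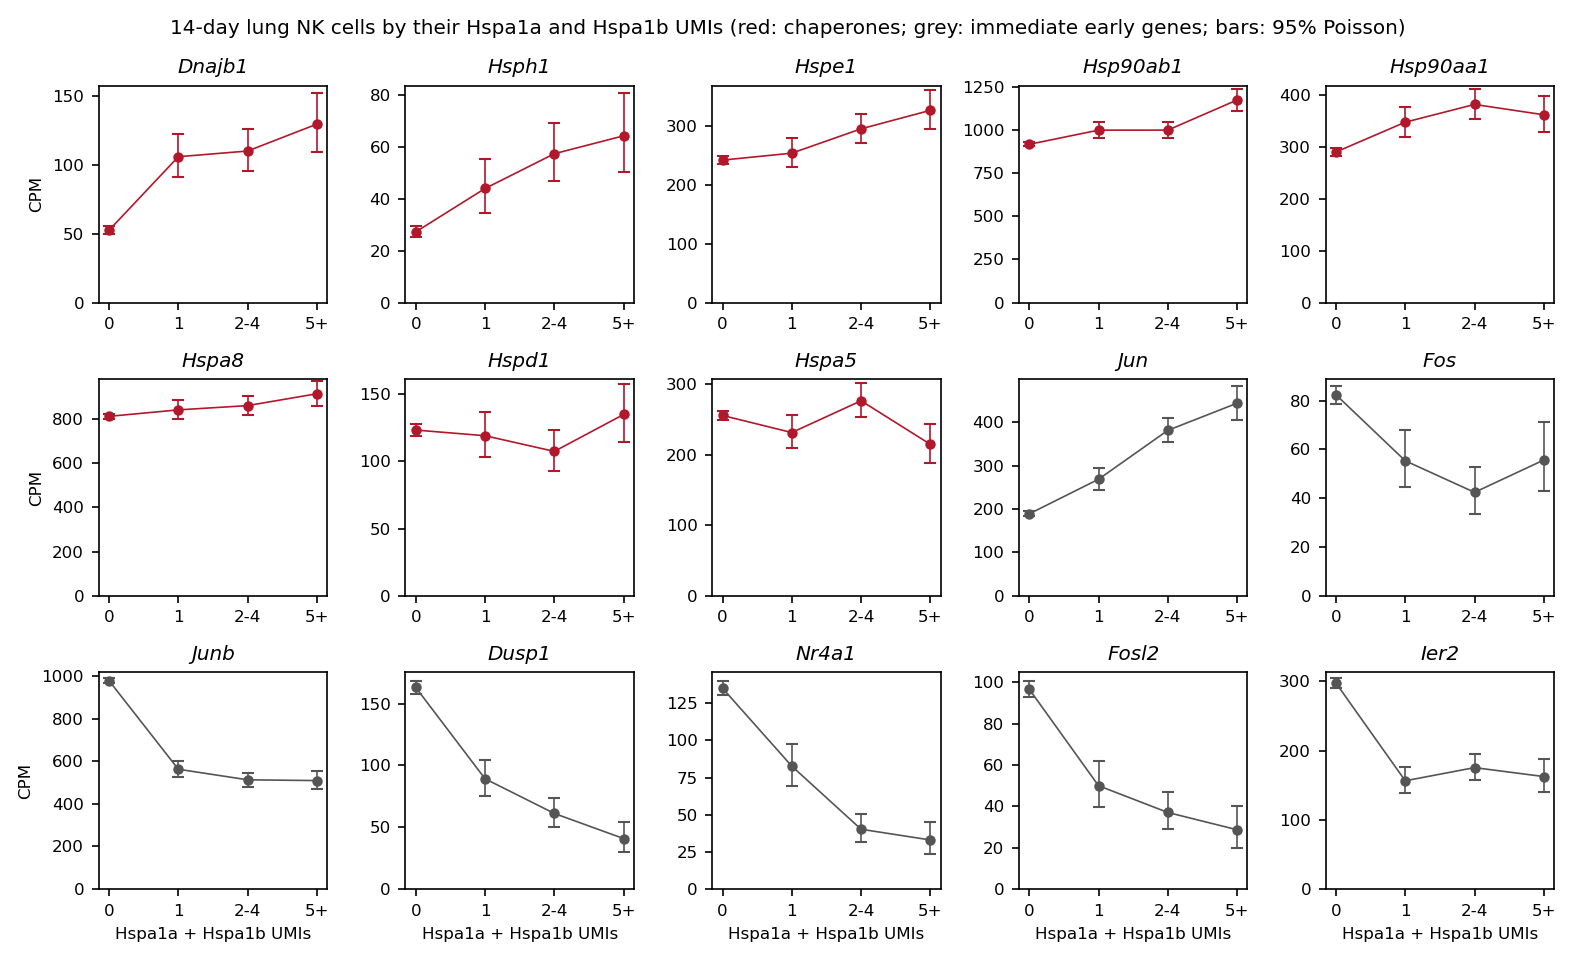
CPM (linear axes from 0) of 8 chaperones in red and of immediate early genes in grey in 14-day lung cells grouped by their UMIs of Hspa1a and Hspa1b together (0, 1, 2 to 4, 5 or more); points are class levels and bars exact 95% counting intervals. The points of Dnajb1, Hsph1 and Jun climb from class to class, though the Dnajb1 intervals of the positive classes overlap. The points of Dusp1 and Nr4a1 descend, and those of Hspa5 have no order.

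Immediate early genes, which are switched on within minutes of many stimuli and also while tissue is being dissociated, were thus not uniformly higher in the positive cells. Jun was higher (log2 ratio 0.92) and Egr1 somewhat higher (0.40), while Junb was at -0.88, Ier2 at -0.85, Fos at -0.71 and Zfp36 at -0.56. In naive lung the ratio was 0.05 for Jun and 0.26 for Dusp1, and in lung at 6 h it was 0.85 and -0.61. Summed over the list, immediate early genes were at 4481, 4500 and 3842 CPM in lung and at 1773, 1732 and 1696 CPM in blood (naive, 6 h, 14 days), so all 3 lung groups were high and 14-day lung was the lowest of them. When cells with any UMI of Fos, Fosb, Egr1 or Atf3 were left out, the log2 ratios of Hspa1a and Hspa1b between 14-day and naive lung were 4.48 and 3.82.

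RNA of other cell types was looked for beside this result, leaving out Ighm, Itgax, Pecam1 and Itga1 from the markers when cells were counted. Of the 1802 UMIs in 14-day lung, 257 lay in cells with a T cell marker (588 cells), 192 in cells with a marker of type 1 innate lymphoid cells (ILC1; 301 cells), 68 in cells with a myeloid marker (152 cells), 12 with an epithelial and 10 with a B cell marker, and 0 with an erythroid, platelet or endothelial marker. Summed over each whole list, erythroid markers were at 0, 0.111 and 89.0 CPM in the 3 lung groups (naive, 6 h, 14 days), the last from 4 cells, and ILC1 markers at 45.1, 43.4 and 133.6 CPM, from 354, 445 and 1031 cells. Of the 5 ILC1 markers Itga1 alone passed 50 CPM, with a log2 ratio of 2.28 between 14-day and naive lung. T cell markers were at 31.2, 38.1 and 57.9 CPM, B cell markers at 35.9, 41.3 and 56.3 CPM, myeloid markers at 90.4, 110.8 and 95.6 CPM and endothelial markers at 49.4, 58.5 and 85.2 CPM. The NK markers themselves were lower at 14 days, at 19000.3, 19392 and 15534 CPM. The part of these shifts in the HSP70 result was not tested beyond leaving cells out. An alternative added after seeing the data kept only cells with no UMI of these markers and at most 1 UMI of T cell markers, 2959 of the 3575 cells of 14-day lung. There the log2 ratios between 14-day and naive lung were 4.53 for Hspa1a and 3.70 for Hspa1b. Positive cells were found in each NK subset examined. They were 16.6% (14.9 to 18.4) of the 1734 cells of 14-day lung with a UMI of Itga1 or Pmepa1, genes tied to tissue residence and TGF-beta signaling, and 14.7% (13.1 to 16.4) of the 1841 cells with neither. They were 15.7% (12.6 to 19.3) of 483 cells with Cd27 and no Itgam, 20.0% (16.4 to 24.1) of 449 cells with both, and 14.9% (13.3 to 16.7) of 1679 cells with Itgam and no Cd27, from less to more mature NK cells. The share was highest where both genes were seen. Median depth differed between these subsets, from 9101 to 8128 and 6743 UMIs. By level, the log2 ratio of Itgam over Cd27 cells was 0.33 (0.00 to 0.67) for Hspa1a and 0.27 (0.02 to 0.53) for Hspa1b. For cells with Itga1 or Pmepa1 over cells with neither it was -0.40 (-0.64 to -0.17) for Hspa1a and -0.10 (-0.27 to 0.06) for Hspa1b. The shares in all these subsets were not thinned to equal depth.

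At the level of whole groups, neither co-chaperone had such a high group. Dnajb1 (chr8:83608193-83612653, plus strand) was at 57.1, 60.1 and 62.7 CPM in lung and 48.3, 54.1 and 47.9 CPM in blood (naive, 6 h, 14 days). The log2 ratio between 14-day and naive lung was 0.14 (0.03 to 0.24), and neighbouring groups overlapped throughout lung. Hsph1 (chr5:149614287-149636376, minus strand) was at 43.9, 51.1 and 31.8 CPM in lung and 38.8, 40.9 and 28.2 CPM in blood. It was lower at 14 days than in naive mice by the same amount in both tissues, with log2 ratios of -0.46 (-0.60 to -0.33) in lung and -0.46 (-0.62 to -0.31) in blood.

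Ratios at 14 days stand beside a shift of all genes. The median log2 ratio of all genes with at least 50 CPM was -0.25 in lung and -0.20 in blood at 14 days, and -0.09 and -0.07 at 6 h. Against that shift, Hsph1 was at -0.21 and Dnajb1 at 0.39 in 14-day lung. The 10 genes had a median of 0.07 in lung and -0.13 in blood at 14 days, and of 0.26 and 0.24 at 6 h.

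The HSP90 genes encode the chaperone that holds kinases and steroid receptors in an activatable form. Hsp90aa1, the more inducible of them (chr12:110690605-110702728, minus strand), was at 362, 429 and 302 CPM in lung and 298, 347 and 262 CPM in blood. Hsp90ab1, the constitutive one (chr17:45567775-45573271, minus strand), was at 920, 1154 and 936 CPM in lung and 871, 1113 and 823 CPM in blood. Both genes were highest at 6 h in each tissue. Their log2 ratios over naive at 6 h were 0.24 (0.20 to 0.28) and 0.33 (0.30 to 0.35) in lung and 0.22 (0.17 to 0.26) and 0.35 (0.33 to 0.38) in blood. At 14 days Hsp90aa1 was at -0.26 in lung and -0.19 in blood, or -0.01 and 0.01 once the all-gene shift was taken off, and Hsp90ab1 at 0.03 (0.00 to 0.05) and -0.08 (-0.11 to -0.05). Against the all-gene shift Hsp90ab1 was at 0.28 in lung and 0.12 in blood. Its direction in lung at 14 days depended on the scaling and on which cells were used, with -0.07 to 0.28 over 14 alternatives, of which 9 kept the sign.

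Hspa8, which encodes the constitutive HSP70 that folds new proteins and uncoats clathrin vesicles (chr9:40800984-40810087, plus strand), was at 755, 882 and 820 CPM in lung and 733, 787 and 752 CPM in blood. It was detected in 93.6 to 97.2% of the cells of a group. Log2 ratios over naive were 0.22 (0.20 to 0.25) in lung and 0.10 (0.07 to 0.13) in blood at 6 h, and 0.12 (0.09 to 0.15) and 0.04 (0.00 to 0.07) at 14 days. On the CPM scale Hspa8 thus differed by at most 0.22 in each comparison between libraries, and against the all-gene shift by 0.37 in 14-day lung and 0.24 in 14-day blood, beside 4.26 and 3.71 for the inducible genes of the same family in 14-day lung.

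On the CPM scale the ER chaperone was lower at 14 days than in naive mice, as were Hsph1, Hsp90aa1 and Hspd1 in both tissues. Hspa5, which encodes BiP, the HSP70 of the ER that folds secreted proteins and holds the sensors of the unfolded protein response (UPR) inactive (chr2:34771970-34777547, plus strand), was at 357, 432 and 254 CPM in lung and 266, 318 and 214 CPM in blood. Its log2 ratio over naive was 0.27 (0.23 to 0.31) in lung and 0.26 (0.21 to 0.31) in blood at 6 h, and -0.49 (-0.54 to -0.45) and -0.32 (-0.37 to -0.26) at 14 days. All neighbouring groups in this order were apart by their intervals. Against the all-gene shift the 14-day ratios of Hspa5 were -0.24 in lung and -0.12 in blood, beside -0.21 and -0.26 for Hsph1. For Hsp90aa1 they were -0.01 and 0.01 and for Hspd1 0.03 and 0.03, so both of these lay near the median of all genes. The ER match is given for Hspa5. The Hspa5 promoter (chr2:34771840-34772089, plus strand) held 1 match, 65 bases before the start, to the ER stress response element, which 0.113% of all windows hold.

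The mitochondrial chaperonin pair came apart. Hspd1 encodes HSP60, the barrel that folds imported proteins (chr1:55077835-55088243, minus strand), and Hspe1 encodes HSP10, its lid (chr1:55088132-55091307, plus strand), and the genes share the promoter region printed above. Hspd1 was at 143, 159 and 122 CPM in lung and 127, 142 and 113 CPM in blood. Hspe1 was at 166, 230.4 and 249 CPM in lung and 169.8, 220.4 and 192 CPM in blood. At 6 h both were above naive, with log2 ratios of 0.15 for Hspd1 in each tissue and of 0.47 (0.42 to 0.53) in lung and 0.38 (0.32 to 0.43) in blood for Hspe1. At 14 days in lung Hspd1 was at -0.23 (-0.30 to -0.16), or 0.03 once the all-gene shift was taken off, and Hspe1 at 0.58 (0.53 to 0.64), or 0.84. In blood they were at -0.17 (-0.25 to -0.09) and 0.18 (0.12 to 0.24).

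**Figure D4:**
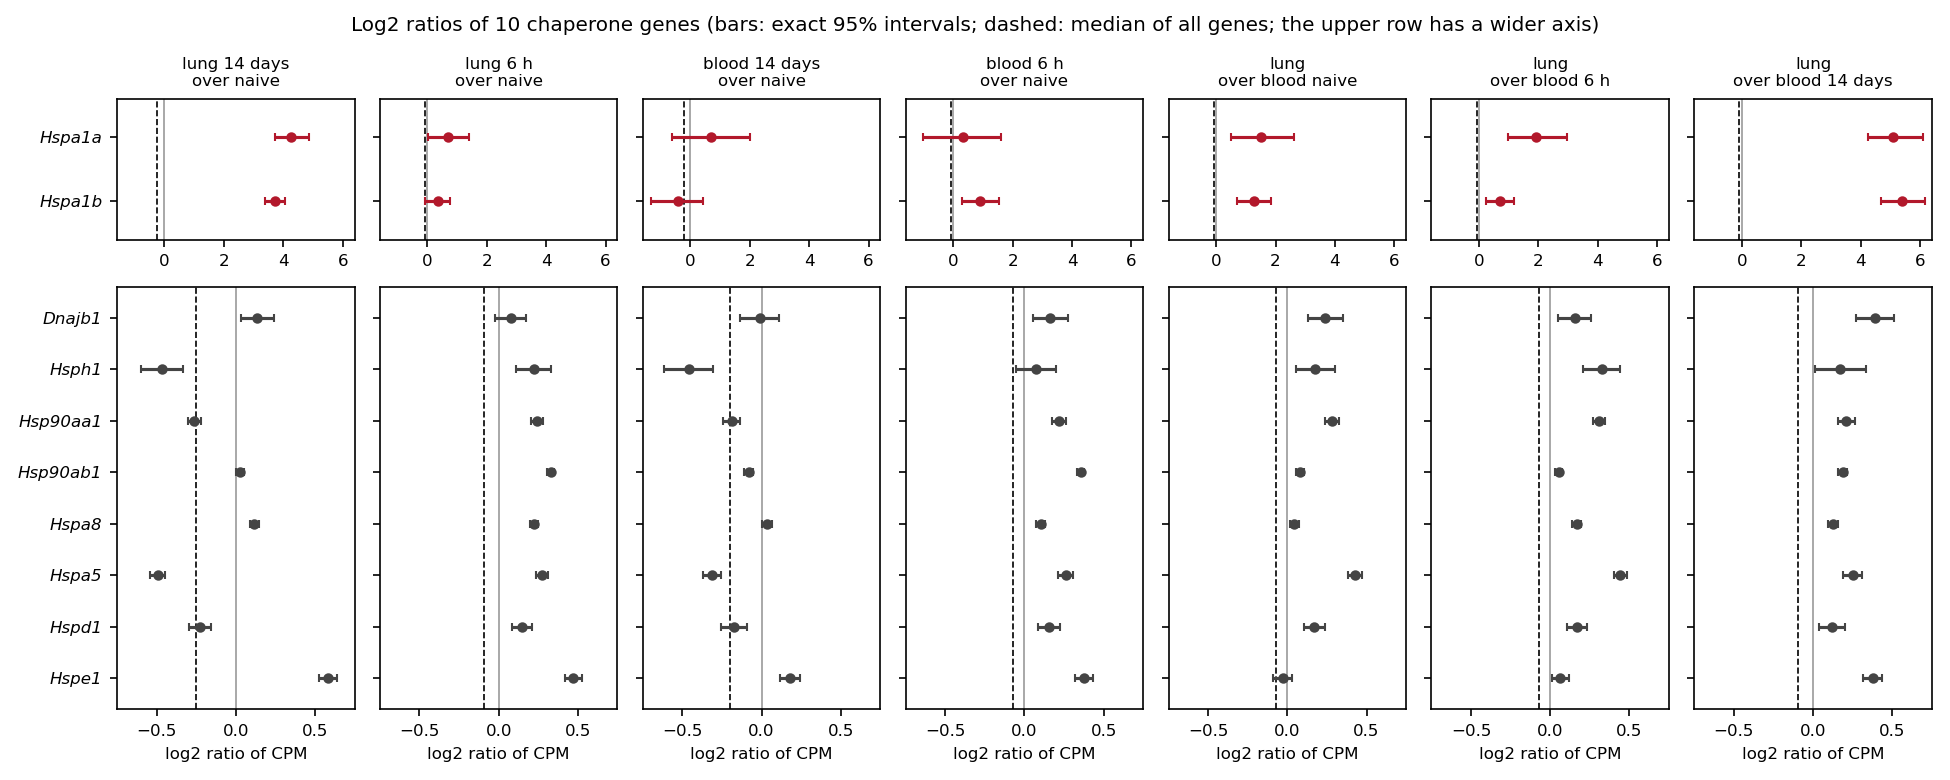
Log2 ratios of CPM of the 10 genes in the 7 comparisons, with exact 95% counting intervals; the upper row, for Hspa1a and Hspa1b, has a wider axis than the lower row, and the dashed line is the median over all genes with at least 50 CPM. In 14-day over naive lung Hspa1a and Hspa1b lie near 4 while the other genes lie between -0.49 and 0.58. At 6 h over naive all 10 points lie above 0. The intervals of 8 do so in lung and of 8 in blood, beside 22.4% and 22.7% of the genes with at least 50 CPM, a minimum not set for the 10 genes.

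Hspe1 in 14-day lung differed between NK subsets. In cells with a UMI of Itga1 or Pmepa1 its log2 ratio over cells with neither was 0.33 (0.26 to 0.40) at 14 days and 0.12 (0.05 to 0.19) at 6 h, against -0.06 (-0.19 to 0.07) in naive lung. In blood it was -0.17, -0.10 and -0.22 (naive, 6 h, 14 days). Without Itga1 or Pmepa1 cells the ratio between 14-day and naive lung was 0.39, the lowest of its alternatives. Hsp90ab1 was at 0.16 and Hspa8 at 0.08 in these cells over the others, while Hspa1a was at -0.40 (-0.64 to -0.17) and Hspa1b at -0.10 (-0.27 to 0.06). A shift of all genes between these subsets was not taken off.

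Several constitutive chaperones differed with NK maturation, as read from UMIs of Cd27 and Itgam. In cells with Itgam and no Cd27 over cells with Cd27 and no Itgam, the log2 ratio of Hspe1 was -0.32, -0.66 and -0.61 in lung and -0.64, -0.43 and -0.26 in blood (naive, 6 h, 14 days). For Hsp90ab1 it was -0.24, -0.41 and -0.60 in lung and -0.34, -0.33 and 0.03 in blood, and for Hspa8 -0.23, -0.44 and -0.40 in lung and -0.28, -0.31 and -0.06 in blood. For Hspd1 it was -0.33, -0.40 and -0.42 in lung and -0.14, -0.24 and 0.15 in blood. Intervals of these 4 genes lay below 0 except for Hspd1 in naive blood (-0.30 to 0.03) and, in 14-day blood, for Hsp90ab1, Hspd1 and Hspa8 (-0.15 to 0.03). No median or share of all genes stands beside these ratios. A shift of all genes between the subsets was therefore not taken off, and these differences are not read as particular to chaperones. Hsp90aa1 differed less, between -0.18 and 0.13, and so did Hspa5, between -0.25 in 14-day lung and 0.20 in 14-day blood. Dnajb1 lay at 0.65 (0.34 to 0.97) in blood at 6 h and 0.34 (0.13 to 0.54) in 14-day lung, and its intervals in the other 4 groups held 0.

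Counted over the set, a 1.5-fold threshold with a minimum of 50 CPM in the higher group called 0 of the 7 members that passed this minimum in 14-day over naive lung, where 4.47% of 3939 genes were higher and 13.4% lower. Hspe1 missed the threshold only narrowly, at 1.49989-fold higher (1.44 to 1.56), so this count of 0 hangs on the exact cut. With a minimum of 10 CPM all 10 passed and 2 were called higher, Hspa1a and Hspa1b, which had reached that minimum only through 14-day lung, against 4.64% of 8108 genes. With 50 CPM no member was called in the other 3 comparisons with naive either. At 6 h 0.231% of genes were higher and 0% lower in lung, and 0.128% and 0.0256% in blood; in blood at 14 days 0.564% were higher and 3.02% lower. By counting intervals, which are narrow for abundant genes, 8 of 10 members were above 0 and 0 below at 6 h in lung, beside 22.4% and 53.4% of all genes, and 8 and 0 in blood, beside 22.7% and 48.0%. At 14 days 6 were above and 4 below in lung (19.9% and 67.6% of all genes) and 2 above and 5 below in blood (21.2% and 61.9%). These shares of all genes are over those with at least 50 CPM, while the counts are over all 10 members. That minimum was passed by 8 members in lung and 7 in blood at 6 h, and by 7 and 6 at 14 days.

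Between the tissues, the set lay slightly to the lung side in each library. The median log2 ratio of lung over blood was 0.21 in naive mice, 0.24 at 6 h and 0.23 at 14 days, beside -0.07, -0.07 and -0.10 over all genes. Intervals lay above 0 for 9, 10 and 10 of the 10 members, beside 27.6, 25.4 and 24.9% of the genes with at least 50 CPM. That minimum was passed by 7, 8 and 7 of the members. The highest ratios apart from the inducible pair were those of Hspa5, 0.43 (0.38 to 0.47) in naive mice and 0.44 (0.40 to 0.48) at 6 h, and at 14 days those of Dnajb1, 0.39 (0.27 to 0.51), and Hspe1, 0.38 (0.32 to 0.44). With at least 50 CPM no member was called 1.5-fold in any library, where 7.67, 7.19 and 6.06% of genes were higher in lung and 2.21, 1.8 and 3.4% lower. With at least 10 CPM Hspa1a and Hspa1b were called at 14 days, beside 5.75% of 8103 genes.

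The wider chaperone network was read from gene lists by function. With a minimum of 10 CPM, which the HSP70 pair passes and which was added after seeing the data, 81 of 96 list genes passed in 14-day over naive lung. Of them 1 was called higher, Pfdn5 at 0.60, and 4 lower, Ern1, Eif2ak3, Hspa13 and Hsp90b1, beside 4.64% and 10.9% of all genes. The rest of the lists is given with the 50 CPM minimum, where 4.47% of all genes were called higher and 13.4% lower. In the list of the HSP70 machine and its co-chaperones, 11 of 20 genes passed 50 CPM and none was called; the median log2 ratio was -0.22, with Hspa14 at -0.52, Dnaja1 at -0.48, Bag1 at 0.08 and Stub1 at 0.06. Among HSP90 co-chaperones 9 of 16 passed and none was called, with a median of -0.20 and with Chordc1 at -0.45, Tomm34 at -0.43, Fkbp5 at 0.47 and Ahsa1 at 0.05. Both medians lay near that of all genes, -0.25. The cytosolic chaperonin TRiC, which folds actin and tubulin, passed with 8 of 8 subunits at a median of 0.01, and prefoldin, which delivers to it, with 5 of 6 at 0.03, with Pfdn5 again the one called. Of the list of HSF1 and its regulators 1 of 6 genes passed, Hsbp1 at 0.10, and of the 9 small heat shock proteins none passed either minimum. Of these, Hspb6 was at 0.895 CPM in naive and 1.81 CPM in 14-day lung, a log2 ratio of 1.02 (0.26 to 1.82), and Hspb1 at 0.0426 and 0.248 CPM, a handful of UMIs.

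The ER list lay lowest of the chaperone lists. Of its ER chaperones and UPR genes 18 of 20 passed, 0 were called higher and 3 lower, with a median of -0.38. Over all genes with that minimum 4.47% were higher and 13.4% lower, with a median of -0.25. With so few genes, the 3 called lower are not set apart from that share. Ern1, which encodes the UPR sensor IRE1 alpha, was at -1.28, Eif2ak3, which encodes the sensor PERK, at -0.77 and Hsp90b1, which encodes the ER HSP90, at -0.62, while P4hb was at 0.24 and Sdf2l1 at 0.06. In the mitochondrial list 3 of 11 passed, with Yme1l1 at -0.53, Hspa9 at -0.03 and Grpel1 at 0.01. At 6 h in lung no gene of these lists was called, and their medians ran from 0.01 for the HSP70 machine to 0.20 for TRiC. There 0.231% of all genes were higher and 0% lower.

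**Figure D5:**
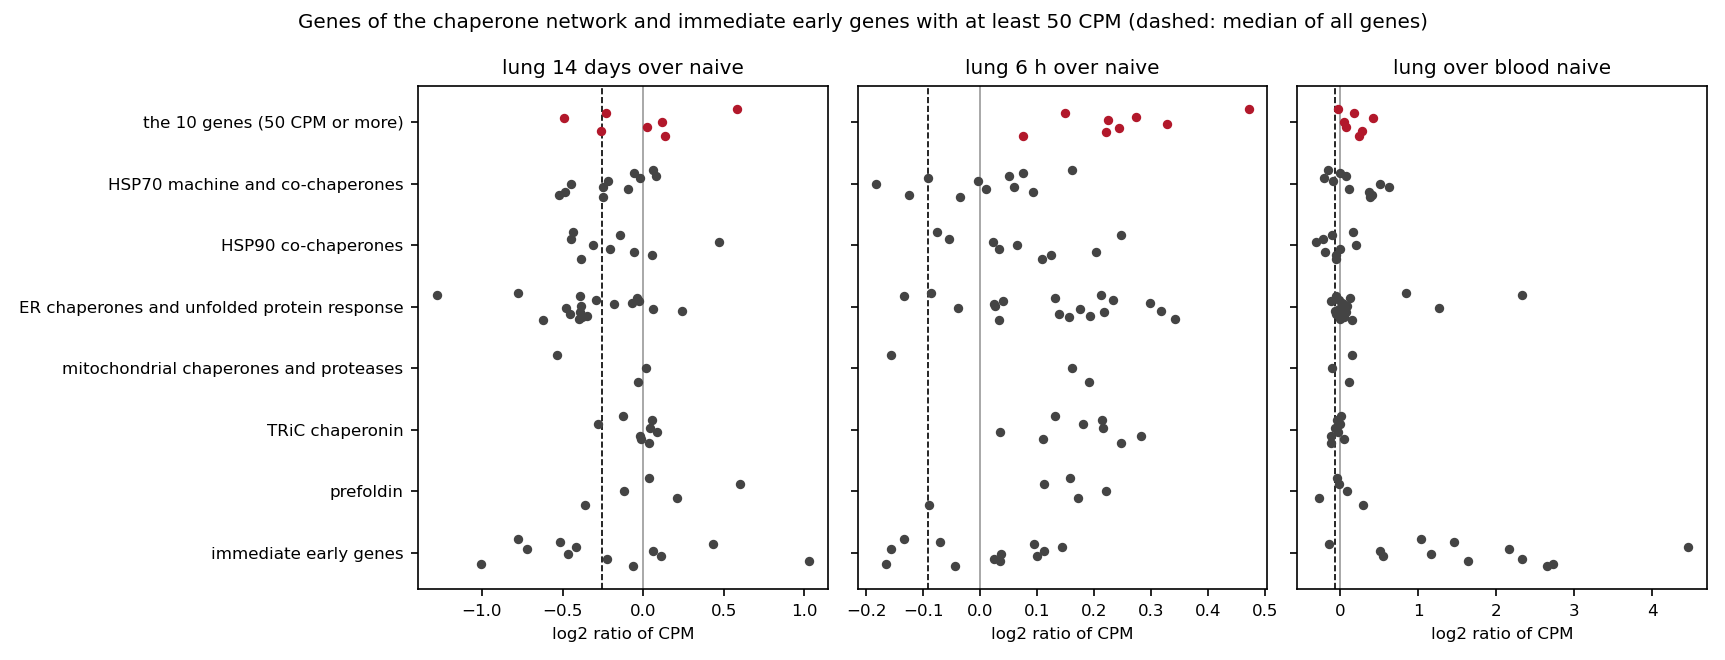
Log2 ratios of the genes with at least 50 CPM in each chaperone list and in the immediate early genes, and of the members that pass that minimum (red), for 14-day over naive lung, 6 h over naive lung and lung over blood of naive mice; points are genes, each panel has its own axis, and the dashed line is the median of all genes. The ER list has the lowest median among the chaperone lists at 14 days, -0.38, and the highest chaperone gene outside the 10 in the 14-day over naive panel is Pfdn5 at 0.60; Hspa1a and Hspa1b do not pass the minimum and are not shown.

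Immediate early genes of 14-day over naive lung had a median of -0.32 over 12 of 16 genes that passed. Of them 1 was called higher (Jun, 1.03) and 3 lower (Fosl2 at -1.01, Klf6 at -0.78 and Nr4a1 at -0.72). Over all genes 4.47% were higher and 13.4% lower. Between lung and blood 9 of the 12 were called higher in each library, with medians of 1.54, 1.72 and 1.60. Over all genes 7.67, 7.19 and 6.06% were higher in lung. For Dusp1 the ratio was 4.46, 4.42 and 4.16, and for Jun 1.63, 1.88 and 2.82 (naive, 6 h, 14 days). In the HSP70 list Dnajb4 was the one gene with at least 50 CPM past 1.5-fold between the tissues, at 0.63, 0.78 and 0.59, and with 10 CPM Dnajb2 joined it at 0.82, 0.96 and 0.80. In the ER list Ern1 was at 2.33, 2.75 and 1.45 and Dnajb9 at 1.27, 1.21 and 0.96. The lung groups therefore carried immediate early RNA in all 3 libraries, and a high level of Hspa1a and Hspa1b in the 14-day library alone; the part of handling in either was not tested.

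Genes whose level followed a member over the 6 groups were found by correlation of log2(CPM + 1) among 4207 genes, a description over 6 points that share libraries. Hspa1a was most like Car2 (Pearson r 0.995), 1700017B05Rik (0.982) and Plac8 (0.981). As Hspa1a was high in 14-day lung alone, that 1 group largely sets these values. Car2 itself was at 127 CPM in naive and 258 CPM in 14-day lung. Hspa5 was most like Alkbh1 (0.997), Tmed5 (0.974) and Mdn1 (0.967), and Hspd1 like Ywhag (0.987), Alkbh1 (0.984) and Mdn1 (0.978). Hsp90aa1 was most like Alkbh1 (0.992), mt-Atp6 (0.965) and Atf4 (0.962), and Hspa8 like Pnp (0.919), Gadd45b (0.912) and mt-Co3 (0.911). Over 3537 single cells of 14-day lung at equal depth, Hsp90ab1 went most with Nme2 (0.326), Rps2 (0.325) and Ptma (0.298), and Hspa5 with Calr (0.167), Xcl1 (0.142) and Gzmb (0.132). Among genes with at least 50 CPM, Hspa1a went most with Brwd1 (0.076), Pfkp (0.073) and Jun (0.072). Between members the correlation of Hsp90ab1 and Hspa8 over cells ranged from 0.210 to 0.354 in the 6 groups, and that of Hspa1a and Hspa1b was 0.190 in 14-day lung.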

How the data were processed

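RNA was counted in 3 single-cell libraries (10x Genomics 3′ v3.1), and the UMI counts per gene and barcode were used as the authors deposited them, made with Cell Ranger (7.1.0 per the file headers) on GRCm38.p6. Barcodes were kept with 800 to 5000 genes and at most 6% mitochondrial counts, the limits in the study's methods, and with at least 90% of their tag counts on 1 hashtag. Hashtag B0304 was taken as lung and B0306 as blood from the order in which the methods name them. These filters passed 8385, 7584 and 5785 barcodes (naive, 6 h, 14 days), of which 342, 158 and 141 were left out by the tag rule. No doublet caller was run. Counts were summed per library and tissue and scaled to CPM with Python 3.11.15, numpy 2.4.6, scipy 1.17.1 and pandas 2.3.3. For each ratio an exact interval was computed given the sum of both counts, and this step was checked on simulated data. The simulated UMIs were drawn independently, as the interval assumes, and only genes with at least 50 CPM were scored. The check therefore says nothing of Hspa1a and Hspa1b or of UMIs clumped in cells. In 14-day lung at equal depth the variance over the mean was 2.21 for Hspa1a and 2.41 for Hspa1b, so their intervals are too narrow. Cells are not replicates, and no test was made. Free RNA was limited by Lyz2 or Ms4a1, genes NK cells lack, to at most 7.43, 4.15 and 2.84% of counts. The list genes named are the 2 highest and 2 lowest of each list in 14-day over naive lung, and other genes were chosen after their values were seen. The members and gene lists were chosen with earlier results of these data known. Positions of genes were taken from GENCODE M21 (GRCm38) and promoters from RefSeq.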

Additional observations from a re-analysis of the deposited data

Results flagged for a closer look

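Hsp90ab1, which encodes the constitutive cytosolic HSP90, differed in direction between the tissues on the CPM scale. The log2 ratio of 14 days over naive was 0.026 in lung and -0.081 in blood, and each counting interval lay on its own side of 0. The lung interval began at only 8.6e-05, and 9 of 14 alternatives kept the sign in lung. Against the all-gene median both tissues were above 0, at 0.28 in lung and 0.12 in blood. The difference between the tissues was not tested, since each condition was 1 library, and both values lay above the median of all genes in their comparison, -0.25 and -0.20.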

How the results depend on the processing

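No paired analysis was possible because each condition was 1 library and the labels carry no replicate numbers; lung over blood, whose cells share a library, is given within each library. Over 14 alternatives, and for a smaller set, the median of the 10 genes changed sign in 14-day lung and 14-day blood over naive, as the values show. In 14-day over naive lung the median, 0.07, was 0.25 with totals that leave out mitochondrial and ribosomal protein genes, 0.33 against the all-gene median, 0.0101 with cells thinned to 3000 UMIs, 0.0087 with every cell weighted equally, -0.0024 without cells with Itga1 or Pmepa1, and -0.10 for the 8 members without Hspa1a and Hspa1b. Set against all genes, the other medians that moved were 0.35 (lung 6 h), 0.073 (blood 14 days) and 0.31 (blood 6 h) over naive, and 0.31 (6 h) and 0.32 (14 days) for lung over blood; without Hspa1a and Hspa1b lung over blood at 6 h was 0.17. The cause of these moves was not tested. The set without these 2 genes, the cells without markers of other cell types and the 10 CPM minimum for list genes were chosen after seeing the data. In 14-day over naive lung the log2 ratio of Hspa1a ranged from 3.98 to 4.56, of Hspa1b from 3.59 to 3.97 and of Hspe1 from 0.39 to 0.84. Subtracting free RNA gave no value for 4 of 70 ratios. Depth limits Hspa1a and Hspa1b in blood, where 11 to 55 UMIs stand behind a level.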
